A study of Homo sapiens with 6 samples.

Results

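The COPI coat subunits are the proteins of coatomer, and 9 genes encoding them were described here among the 15598 genes of the deposited count table: ARCN1, COPA, COPB1, COPB2, COPE, COPG1, COPG2, COPZ1 and COPZ2. They were chosen by symbol as members of the coat, and ARCN1 was singled out because its fall in these same libraries was large, so its values are given as a description without a test. All 9 passed the filter on low counts and stood among the 11831 genes tested. RNA was sequenced from MHCC97H, a hepatocellular carcinoma cell line with high metastatic capacity. The knockdown cells carried a short hairpin RNA against HNRNPC (shHNRNPC, 3 libraries), and the comparison cells carried a control hairpin (shcontrol, 3 libraries). The product of HNRNPC is hnRNP C, an RNA-binding protein of the nucleus with a preference for runs of uridine in new transcripts. The labels name a single cell line and tell apart a single knockdown construct, so an effect of the hairpin itself was not tested. The design text calls the replicates independent but does not say whether they came from separate cultures, so the p-values measure only the spread between these libraries, which may be technical.

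The libraries held 15563077 to 18328475 counted reads. The knockdown was visible in the targeted transcript: HNRNPC averaged 62.3 ± 3.80 CPM in shHNRNPC cells and 853 ± 4.76 CPM in shcontrol cells (CPM, read counts scaled to library size; mean ± SD, n = 3 each). Of 10 hepatocyte markers, 6 were in the table and only SERPINA1 passed the filter, at 0.584 ± 0.309 CPM in shHNRNPC cells and 0.421 ± 0.206 CPM in shcontrol cells. Albumin (ALB) had at most 1 count in any library, so defining hepatocyte markers were at or near 0 in this liver cancer line. The 4 epithelial markers listed were uneven. The keratin KRT8 averaged 1159 ± 8.20 CPM in shHNRNPC cells and 1006 ± 7.07 CPM in shcontrol cells, and KRT18 averaged 405 ± 8.77 and 364 ± 7.16 CPM. CDH1 averaged only 16.2 ± 0.309 CPM in shHNRNPC cells and 14.6 ± 2.40 CPM in shcontrol cells. EPCAM did not pass the filter, with at most 7 counts in any library. No leukocyte or endothelial marker of the lists passed the filter, and of the fibroblast list only COL1A1 did, with 15.2 to 16.7 CPM in shHNRNPC cells and 15.1 to 16.3 CPM in shcontrol cells.

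Coatomer coats vesicles that bud from Golgi membranes. The small GTPase ARF1, in its GTP-bound form, recruits the whole complex from the cytosol, and the coat then gathers cargo with dilysine retrieval signals and returns it to the endoplasmic reticulum or to earlier Golgi cisternae. The alpha (COPA), beta-prime (COPB2) and epsilon (COPE) subunits form the outer, cage-like layer. The beta (COPB1), gamma (COPG1 or COPG2), delta (ARCN1) and zeta (COPZ1 or COPZ2) subunits form the inner layer and are related to the subunits of the AP clathrin adaptors, delta-COP to their mu chains and zeta-COP to their sigma chains.

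The promoters of 4 subunit genes are shown because these genes moved furthest in each direction among the subunits whose change was clear: ARCN1 and COPB1 were the furthest lower in shHNRNPC cells, and COPZ1 and COPG2 were higher. Each is the RefSeq stretch from 250 bases before to 50 bases after the annotated start in GRCh38.p14, written 5′ to 3′ on the gene's own strand, with ACGTG in capitals on either strand (CACGT on the printed strand is the same letters read on the other). ARCN1 is on the plus strand at chr11:118572159-118572458, COPB1 on the minus strand at chr11:14499762-14500061, COPZ1 on the plus strand at chr12:54324881-54325180, and COPG2 on the minus strand at chr7:130668699-130668998.
ARCN1: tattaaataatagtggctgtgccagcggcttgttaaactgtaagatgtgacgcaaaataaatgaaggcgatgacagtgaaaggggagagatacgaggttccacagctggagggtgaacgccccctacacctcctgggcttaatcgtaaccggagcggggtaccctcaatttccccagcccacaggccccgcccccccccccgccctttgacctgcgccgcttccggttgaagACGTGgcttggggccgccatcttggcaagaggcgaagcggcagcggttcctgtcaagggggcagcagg
COPB1: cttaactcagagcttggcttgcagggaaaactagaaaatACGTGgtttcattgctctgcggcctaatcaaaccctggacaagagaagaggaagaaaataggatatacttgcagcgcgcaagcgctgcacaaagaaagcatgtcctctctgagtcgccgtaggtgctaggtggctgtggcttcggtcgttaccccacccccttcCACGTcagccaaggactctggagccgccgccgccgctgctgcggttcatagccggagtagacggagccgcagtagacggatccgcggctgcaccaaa
COPZ1: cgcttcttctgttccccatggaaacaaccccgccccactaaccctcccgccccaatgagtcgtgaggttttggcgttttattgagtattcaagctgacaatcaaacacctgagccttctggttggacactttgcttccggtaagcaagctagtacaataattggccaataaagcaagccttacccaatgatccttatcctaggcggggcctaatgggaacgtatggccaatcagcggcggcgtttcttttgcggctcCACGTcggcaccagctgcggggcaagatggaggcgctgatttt
COPG2: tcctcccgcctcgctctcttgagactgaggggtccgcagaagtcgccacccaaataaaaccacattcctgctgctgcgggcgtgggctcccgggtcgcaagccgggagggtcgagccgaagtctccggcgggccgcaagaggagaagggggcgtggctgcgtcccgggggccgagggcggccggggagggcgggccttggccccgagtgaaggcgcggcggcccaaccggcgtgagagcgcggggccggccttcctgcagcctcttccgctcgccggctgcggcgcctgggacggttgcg

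ACGTG, the core of several stress-response elements and of the E-box CACGTG, was present in 8 of the 9 subunit promoters, and COPG2 was the one without it. Over 27305 RefSeq promoters of the same length 21.6% held ACGTG, and over the 12017 of them that matched a gene of the table by symbol 25.2% did. In ARCN1 the match began 18 bases before the start. COPB1 had a match on each strand, beginning 211 and 47 bases before the start, and in COPZ1 the match began at the eighth base after it. The longer TGACGTG, searched after the ACGTG matches had been seen and always containing one of them, was present in COPA, COPB1, COPB2 and COPE, 4 of 9 against 2.0% of all promoters. GGGCGG was in 7 of 9 against 44.6% of all promoters and 65.4% of those of table genes, CCAAT was in 2 of 9 against 35.7% and 35.9%, and TATAAA was in 0 of 9 against 12% and 6.8%. The letters did not separate the subunits by direction, since ACGTG was in the promoters of ARCN1 and COPB1, which were lower, and of COPZ1 and COPE, which were higher. These are matches of letters, and binding at them was not measured.

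ARCN1, which encodes delta-COP, lies on the plus strand at chr11:118572436-118603033 as the deposited table gives it, a position that overlaps the gene of that name in GENCODE 29 (GRCh38). It had 1260, 1225 and 1260 counts in the shHNRNPC libraries, against 4369, 4243 and 4889 counts in the shcontrol libraries. On the CPM scale this was 76.7, 69.9 and 71.3 in shHNRNPC cells (72.6 ± 3.58), against 257, 269 and 263 in shcontrol cells (263 ± 5.82). All 3 shHNRNPC libraries lay far below all 3 shcontrol libraries, and the distance between the groups was many times the spread within either. The log2 fold change, shHNRNPC over shcontrol, was -1.86 with a standard error of 0.034, so the transcript was 3.62-fold lower and stood at 27.6% of its shcontrol level. For ARCN1, -1.85 is the log2 fold change in the authors' deposited table. By log2 fold change, 10 of the 11831 tested genes lay lower than ARCN1, and 3 did among the 4258 genes that averaged at least 50 CPM over the 6 libraries. In these bulk libraries, fewer cells with the transcript and less transcript per cell cannot be told apart.

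**Figure D1:**
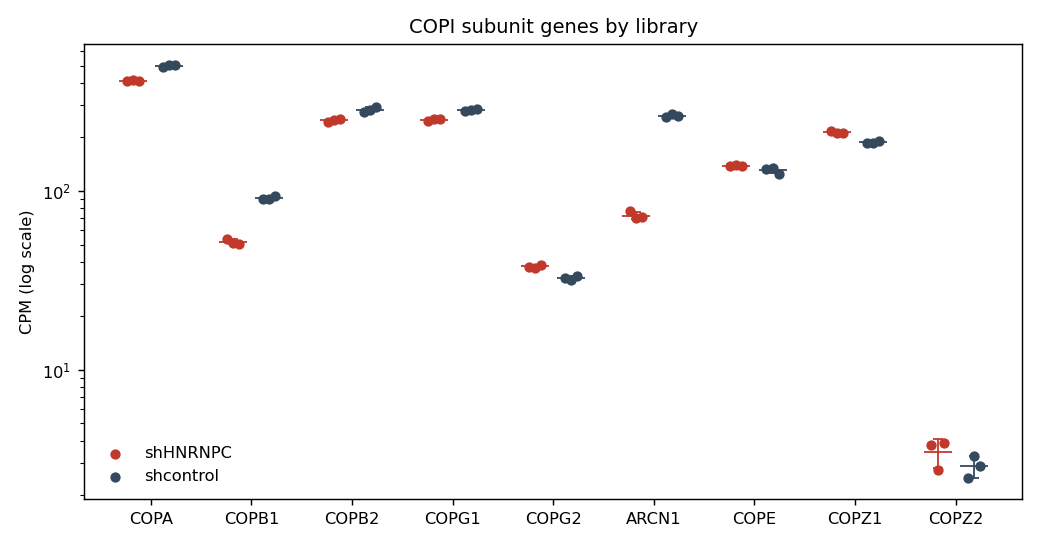
Levels of the 9 COPI subunit genes in each library (vertical axis, CPM on a log scale), with shHNRNPC in red on the left and shcontrol in dark blue on the right of each gene; horizontal lines are means and vertical bars SDs (n = 3). ARCN1 shows the widest gap, 72.6 against 263 CPM, COPB1 the next at 51.7 against 90.9 CPM, and COPZ2 is the one gene whose groups overlap.

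COPB1, the beta subunit of the inner layer (minus strand, chr11:14457550-14499895), was the other subunit with a large change. It had 53.5, 51.3 and 50.3 CPM in the shHNRNPC libraries, against 89.5, 90.1 and 93.0 CPM in the shcontrol libraries. The groups did not overlap, and each shHNRNPC library was well under the lowest shcontrol library. COPB1 fell 1.76-fold (log2 fold change -0.81, SE 0.044, adjusted p = 9.21e-21 in edgeR's quasi-likelihood test over all tested genes), and 436 tested genes had a lower log2 fold change. ARCN1 and COPB1 are on the same chromosome, on opposite arms.

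The gamma subunit exists in 2 forms made by separate genes, and these moved in opposite directions. COPG1 (plus strand, chr3:129249606-129277773) had 246, 251 and 251 CPM in shHNRNPC cells, against 279, 283 and 287 CPM in shcontrol cells. COPG2 (minus strand, chr7:130546787-130668705) had 37.6, 36.9 and 38.5 CPM in shHNRNPC cells, against 32.6, 31.6 and 33.1 CPM in shcontrol cells. In both genes the groups were separate, COPG1 with the shHNRNPC libraries on the low side and COPG2 with them on the high side. COPG1 fell 1.14-fold (log2 fold change -0.18, SE 0.026, adjusted p = 4.48e-08, edgeR) and COPG2 rose 1.16-fold (log2 fold change 0.22, SE 0.059, adjusted p = 0.00159, edgeR).

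Zeta-COP also comes from a pair of genes, and the abundant one rose. COPZ1 (plus strand, chr12:54325139-54350354) had 215, 209 and 211 CPM in shHNRNPC cells, against 185, 184 and 189 CPM in shcontrol cells. The groups did not overlap, and COPZ1 rose 1.14-fold (log2 fold change 0.19, SE 0.028, adjusted p = 2.59e-07, edgeR). COPZ2 (minus strand, chr17:48026171-48037782) was counted 62, 48 and 69 times in the shHNRNPC libraries, against 42, 52 and 54 times in the shcontrol libraries, or 2.74 to 3.90 CPM against 2.47 to 3.29 CPM. Those ranges overlap, and the log2 fold change of 0.27 had a standard error of 0.196 and did not pass the threshold (adjusted p = 0.242, edgeR), so a change of this size was not detectable at this depth. The coefficient of variation over replicates was 18.4% in shHNRNPC cells and 14.2% in shcontrol cells for COPZ2, against at most 4.93% for each of the other 8 genes in either group.

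In the outer layer COPA and COPB2 fell slightly, and COPE was slightly higher. COPA (minus strand, chr1:160289615-160343252), the most counted of the 9, had 411, 416 and 410.0 CPM in shHNRNPC cells, against 494, 504 and 503 CPM in shcontrol cells. COPB2 (minus strand, chr3:139357406-139389732) had 242, 249 and 252 CPM in shHNRNPC cells, against 277, 284 and 292 CPM in shcontrol cells. Every shHNRNPC library was below every shcontrol library for both genes. COPA fell 1.21-fold (log2 fold change -0.28, SE 0.022, adjusted p = 7.40e-15, edgeR) and COPB2 fell 1.15-fold (log2 fold change -0.20, SE 0.027, adjusted p = 1.41e-08, edgeR).

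COPE (minus strand, chr19:18899517-18919363) had 137, 139 and 137 CPM in the shHNRNPC libraries, against 132, 133 and 125 CPM in the shcontrol libraries. The groups did not overlap, but the closest libraries were only a few CPM apart. COPE rose 1.06-fold (log2 fold change 0.09, SE 0.034, adjusted p = 0.0209, edgeR). This call did not hold in DESeq2 (adjusted p = 0.0552), with scaling by library size alone (0.213), without the shHNRNPC library SI_3_2 (0.0735) or without the shcontrol library NC_3_3 (0.186). When fold changes were corrected for the GC content and length of transcripts, its direction turned, to a log2 fold change of -0.15 (adjusted p = 5.36e-05).

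Of the 8 subunits other than ARCN1, 3 rose, 4 fell and 1 did not pass the threshold. That is 87.5% called, where 61.1% of all tested genes were called, 29.8% higher and 31.3% lower, so calls as such were common in this comparison and the sizes carry more than the counts. The groups did not overlap for 7 of the 8, against 64.0% of all tested genes. Of these 7, 4 were lower in every shHNRNPC library than in any shcontrol library, where 33.0% of all tested genes were, and 3 were higher in every one, where 30.9% were. Their median log2 fold change was -0.05, beside -0.004 over all tested genes. The central 95% of tested genes lay between -0.90 and 0.87. COPB1 lay inside that range near its lower end, and the other 7 lay between -0.28 and 0.27. With the GC and length correction COPB1 stood at -0.60, COPA at -0.28, COPG1 at -0.30, COPB2 at -0.10, COPZ1 at 0.08 and COPG2 at 0.26, in the same directions and past the threshold.

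**Figure D2:**
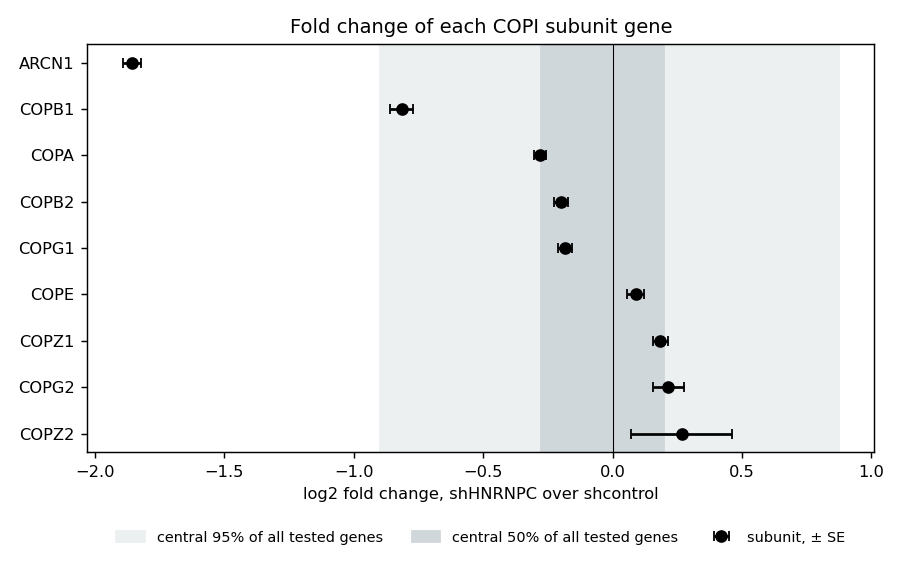
Log2 fold change of each COPI subunit gene, shHNRNPC over shcontrol (horizontal axis; points are estimates over 3 libraries a group and bars ± SE), on shaded bands for the central 50% and 95% of all tested genes. ARCN1 at -1.86 lies outside both bands, COPB1 at -0.81 lies near the edge of the wider one, and the other 7 lie between -0.28 and 0.27.

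Levels of different genes were compared per kilobase of the longest coding transcript in GENCODE 29. On this per-length scale the order in shHNRNPC cells was COPE at 121 ± 1.17, COPZ1 at 112 ± 1.49, COPA at 86.1 ± 0.663, COPG1 at 81.0 ± 0.962, COPB2 at 73.6 ± 1.57, ARCN1 at 17.98 ± 0.886, COPB1 at 14.9 ± 0.479, COPG2 at 12.02 ± 0.258 and COPZ2 at 3.88 ± 0.713 CPM per kilobase (SD, n = 3). In shcontrol cells COPE was at 113 ± 3.94, COPA at 104 ± 1.22, COPZ1 at 98.1 ± 1.45, COPG1 at 92.0 ± 1.38, COPB2 at 84.6 ± 2.30, ARCN1 at 65.1 ± 1.44, COPB1 at 26.1 ± 0.532, COPG2 at 10.3 ± 0.253 and COPZ2 at 3.23 ± 0.459 CPM per kilobase. In neither group did the library ranges of neighbours in the order overlap, and on this scale COPA and COPZ1 traded places between the groups. ARCN1 kept the place after COPB2, but in shcontrol cells it stood close to the abundant subunits and in shHNRNPC cells close to COPB1 and COPG2. The order rests on the transcript length used: with the median length of the annotated coding transcripts, a choice made after the data were seen, COPB2 led in both groups, followed by COPZ1, COPG1, COPE and COPA, so that COPA and COPZ1 did not trade places. ARCN1 was then in position 7 of 9 in shHNRNPC cells, just under COPB1 (32.4 and 32.6 CPM per kilobase), and 6 of 9 in shcontrol cells.

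**Figure D3:**
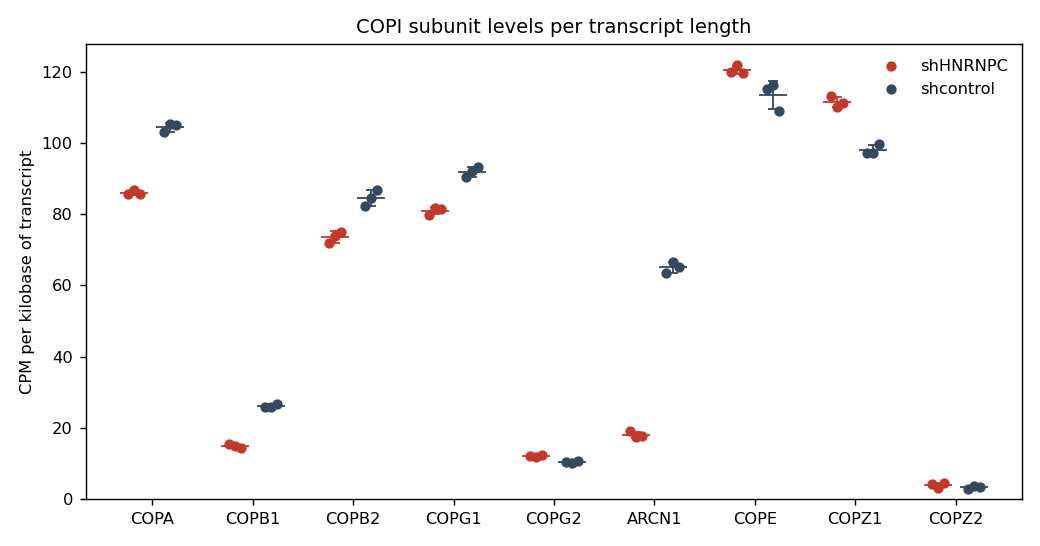
Levels of the 9 COPI subunit genes per kilobase of transcript (vertical axis, CPM per kilobase, linear) in each library, shHNRNPC in red on the left and shcontrol in dark blue on the right of each gene, with mean and SD (n = 3). ARCN1 stands at 17.98 against 65.1, within reach of COPB2 (84.6) in shcontrol cells and beside COPB1 (14.9) in shHNRNPC cells.

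Since each coatomer complex carries delta-COP beside the other subunits, the ARCN1 level per length was set against the median of the other 6 coat positions, with both gamma genes and both zeta genes summed. It came to 21.4%, 19.2% and 19.7% of that median in the shHNRNPC libraries, against 63.3%, 65.5% and 63.0% in the shcontrol libraries. The groups lay far apart, and this ratio inherits the choice of ARCN1 and has no test. With median transcript lengths the values were 23.2% in shHNRNPC cells and 81.3% in shcontrol cells. For COPB1 a like ratio, against the median of the other 5 positions with ARCN1 left out, was 15.97% ± 0.684 in shHNRNPC cells and 25.5% ± 0.191 in shcontrol cells, an exact two-sided permutation p of 0.1, which is the smallest that 3 libraries against 3 can give.

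COPG2 made up 13.1%, 12.6% and 13.1% of the gamma level per length in the shHNRNPC libraries, against 10.3%, 9.86% and 10.2% in the shcontrol libraries. The shares did not overlap (exact two-sided permutation p = 0.1, again the smallest possible). With median transcript lengths COPG2 made up 8.22% in shHNRNPC cells and 6.35% in shcontrol cells. COPZ2 made up 3.35% ± 0.575 of the zeta level in shHNRNPC cells and 3.18% ± 0.444 in shcontrol cells, ranges that overlapped (exact p = 0.8), and 1.75% in shHNRNPC cells and 1.66% in shcontrol cells with median lengths. Summed over the 8 subunit genes other than ARCN1, shHNRNPC cells had 1352 ± 5.26 CPM and shcontrol cells 1510 ± 18.1 CPM, a log2 ratio of -0.16 with no overlap between groups (exact p = 0.1). With ARCN1 the sums were 1424 ± 1.69 CPM in shHNRNPC cells and 1773 ± 22.5 CPM in shcontrol cells, without a test.

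Several subunit genes share exons with other annotated genes, and how the authors' counting used strand is not given in the sources used here. Of the stretches of 50 bases in its longest coding transcript, ARCN1 shares 0.35% with other genes, and COPB2, COPG1, COPZ1 and COPZ2 share none. COPB2 still has an annotated exon overlap with MRPS22 on the opposite strand, which the search of these stretches did not pick up. MRPS22 fell 1.17-fold, in the same direction as COPB2 (log2 fold change -0.23, adjusted p = 8.32e-06, edgeR). Whether reads from this overlap were counted for either gene was not tested. COPG1 and COPG2 share no such stretch with each other, nor do COPZ1 and COPZ2. COPB1 shares 10.4% with the readthrough gene AC018523.2 on the same strand, which had at most 1 count in each library. How reads from this shared stretch were assigned is not given, and whether COPB1 lost reads there was not tested. The level of COPB1 per length beside the other subunits is uncertain to that extent. COPE shares 19.8% with AC002985.1, which was not analysed here, so the split of COPE reads is uncertain. COPG2 shares 5.80% with MEST on the opposite strand, which had at most 1 count in each library, and 2.95% with the antisense gene AC007938.3, not analysed here; without strand, reads from that shared stretch cannot be told apart. COPA shares 1.69% with NCSTN, a gene on the opposite strand that rose 1.27-fold where COPA fell (log2 fold change 0.34, adjusted p = 1.05e-14, edgeR). Introns of COPZ1 and COPZ2 hold the microRNA genes MIR148B and MIR152, which were not measured.

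The transcripts were also compared by features that the choice of genes had not used. ARCN1 has 3.22 runs of at least 5 T per kilobase in its longest coding transcript, at the 78.0th percentile of tested genes, whose median was 1.76. COPB1, the other strongly lower subunit, has 0.57 per kilobase, at the 21.4th percentile, so the 2 did not share this feature of the spliced transcript. Introns were not searched. Both have a GC fraction under the median of 0.484, with 0.436 for ARCN1 and 0.408 for COPB1. COPB2 at 0.436, and COPG2 and COPZ1, which rose, at 0.445 and 0.4765, are also under it. COPE stands at the other end with 0.639, the 93.9th percentile, and with a transcript of 1144 bases, the 5.0th percentile. Gene spans ran from 11.6 kb in COPZ2 to 121.9 kb in COPG2, with 30.6 kb for ARCN1 beside a median of 26.2 kb over tested genes.

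The genomic neighbours of ARCN1 moved in both directions. Of the 3 nearest tested genes on each side, 2 rose, 2 fell and 2 did not pass the threshold, where 29.8% of all tested genes rose and 31.3% fell, with log2 fold changes between -0.72 and 0.21. PHLDB1, whose gene starts 3.4 kb after ARCN1, rose 1.11-fold (log2 fold change 0.14, adjusted p = 8.33e-05, edgeR), and BCL9L, a coactivator of beta-catenin, rose 1.16-fold (0.21, adjusted p = 3.14e-07). KMT2A, a histone H3 lysine methyltransferase, fell 1.20-fold (-0.26, adjusted p = 2.26e-06), and DDX6, an RNA helicase of P-bodies, fell 1.64-fold (-0.72, adjusted p = 6.71e-19). IFT46, an intraflagellar transport gene that overlaps ARCN1 within an intron on the opposite strand in GENCODE 29, averaged 10.1 ± 0.356 CPM in shHNRNPC cells and 10.2 ± 0.909 CPM in shcontrol cells (log2 fold change -0.01, adjusted p = 0.921, edgeR), and its sign turned in 3 alternatives. With the GC and length correction KMT2A stood at -0.11 and DDX6 at -0.375, both still called lower. The sixth neighbour, AP001267.5, was low in all libraries and had a log2 fold change of -0.26 (adjusted p = 0.391).

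Over the neighbours of all 9 subunit genes, 21 of 54 rose, 14 fell and 19 did not pass the threshold, which is 64.8% called and close to the 61.1% of all tested genes. All 6 neighbours of COPZ2, which itself did not pass the threshold, rose by 0.14 to 0.56 on the log2 scale. Of all tested genes 29.8% rose and 31.3% fell. Of the neighbours of COPB2, which itself fell, 4 of 6 fell, among them the catalytic PI3-kinase subunit PIK3CB at a log2 fold change of -0.41. Of the neighbours of COPB1 only RRAS2 passed the threshold, at -0.29. Neither PIK3CB nor RRAS2 passed with the GC and length correction (adjusted p = 0.335 and 0.829). The neighbours of COPB2 and COPZ2 named here were singled out after their values had been seen.

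**Figure D4:**
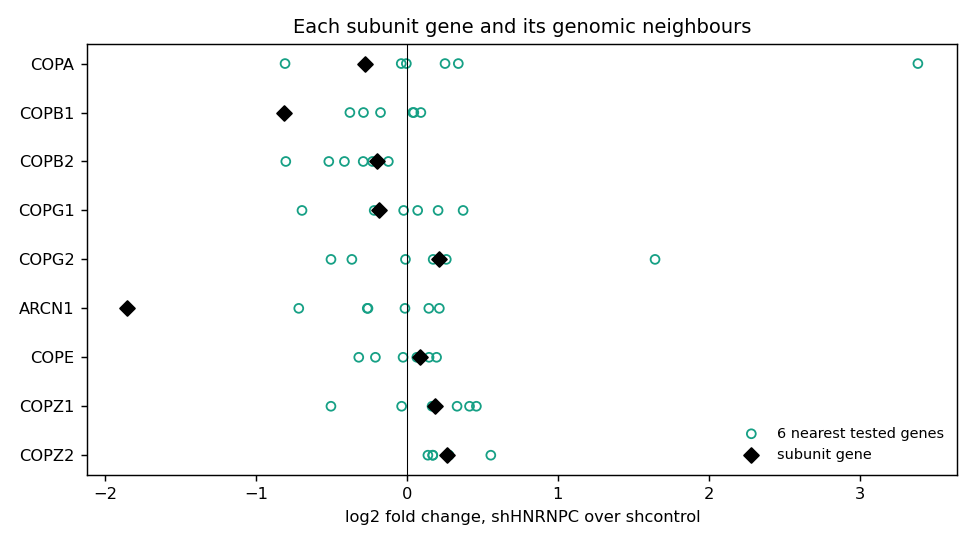
Log2 fold change, shHNRNPC over shcontrol (horizontal axis), of each COPI subunit gene (black diamonds) and of the 6 nearest tested genes around it (open circles, 3 on each side). ARCN1 at -1.86 lies below all of its neighbours, which span -0.72 to 0.21, and COPB1 at -0.81 lies below all of its own.

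Genes whose profile over the 6 libraries was most like that of ARCN1 were taken by the smallest root mean square difference of log2 CPM, each gene centred on its shcontrol mean, among 9698 tested genes with a mean of at least 5 CPM. They were SLC46A3 at 0.099, HIF1A at 0.125, NEXN at 0.149, CDYL2 at 0.154 and WRN at 0.154 log2 units. HIF1A, the oxygen-regulated subunit of hypoxia-inducible factor, averaged 27.5 ± 0.934 CPM in shHNRNPC cells and 110 ± 1.84 CPM in shcontrol cells. SLC46A3, a lysosomal membrane transporter, averaged 3.72 ± 0.386 CPM in shHNRNPC cells and 13.6 ± 0.779 CPM in shcontrol cells. These values are a description, since likeness to ARCN1 fixes a large fall.

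The genes that work with the coat were counted from lists of 90 genes, of which 87 passed the filter on low counts. Of these, 29 rose, 31 fell and 27 did not pass the threshold, 69.0% called beside 61.1% of all tested genes, with a median log2 fold change of -0.015 beside -0.004. The 3 that did not pass the filter, SURF4, COG5 and AP3B2, had at most 2 counts in any library. Counts alone do not tell an absent transcript from reads lost in assignment to genes, and this was not tested. In the ARF cycle 4 of 10 rose and 3 fell, 70.0% called beside 61.1% of all tested genes. ARF1, the GTPase that recruits coatomer, averaged 564 ± 12.01 CPM in shHNRNPC cells and 536 ± 4.81 CPM in shcontrol cells, a log2 fold change of 0.07 (adjusted p = 0.00386, edgeR) that turned to -0.10 with the GC and length correction and did not pass with library size alone (adjusted p = 0.196). The guanine nucleotide exchange factors ARFGEF1 and ARFGEF2, which act on ARF proteins at the trans-Golgi network and endosomes, fell 1.67-fold and 1.64-fold (adjusted p = 4.02e-13 and 1.00e-19). GBF1, the other exchange factor of the list, averaged 116 ± 3.57 CPM in shHNRNPC cells and 118 ± 3.75 CPM in shcontrol cells and did not pass (adjusted p = 0.593, edgeR). ARFGAP3, which triggers GTP hydrolysis on ARF1, fell 1.72-fold, with 17.1 ± 0.747 CPM in shHNRNPC cells and 29.4 ± 0.568 CPM in shcontrol cells (adjusted p = 6.61e-13). ARFGAP2 rose 1.10-fold, with 160 ± 7.12 CPM in shHNRNPC cells and 146 ± 2.24 CPM in shcontrol cells (adjusted p = 0.000538, edgeR). ARF4 and ARFGAP1, the other most counted members, had log2 fold changes of -0.04 and 0.04 that did not pass the threshold (adjusted p = 0.184 and 0.214, edgeR). Their signs turned under the same correction, to 0.10 and -0.10, past the threshold (adjusted p = 0.000503 and 0.000695). With library size alone ARF4 was called lower (-0.08, adjusted p = 0.00737) and ARFGAP1 stood at -0.003. ARFGEF1 and ARFGEF2 stood at -0.43 and -0.47 with the GC and length correction, against -0.74 and -0.72 without it. With that correction the list counted 2 higher and 5 lower.

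Among the cargo receptors, the most counted genes were slightly higher in shHNRNPC cells. Of the 9 p24 family genes, which encode cargo receptors that cycle between the endoplasmic reticulum and the Golgi, 5 rose and 3 fell. That is 88.9% called, beside 61.1% of all tested genes. TMED9, TMED2 and TMED10, the most counted, had log2 fold changes of 0.06, 0.12 and 0.15 (adjusted p = 0.00941, 0.000135 and 4.93e-05, edgeR), and that of TMED9 turned to -0.14 with the GC and length correction and did not pass with library size alone (adjusted p = 0.389) or without the shcontrol library NC_3_3 (0.0649). TMED7 fell 1.82-fold, with 45.8 ± 2.33 CPM in shHNRNPC cells and 83.1 ± 3.17 CPM in shcontrol cells (adjusted p = 2.28e-20). TMED2, TMED10 and TMED7 stood at 0.31, 0.41 and -0.54 with the GC and length correction. TMED6, at 0.548 ± 0.212 CPM in shHNRNPC cells and 1.08 ± 0.170 CPM in shcontrol cells, rests on 7 to 22 counts a library (adjusted p = 0.0219). Its call was lost in DESeq2 (0.105) and without any one of the libraries SI_3_2, SI_3_3, NC_3 and NC_3_3 (0.0615 to 0.0974). TMED5 fell by 0.16 on the log2 scale (adjusted p = 0.0108), and its sign turned to 0.25 under that correction. It did not pass in DESeq2 (0.0576) or without NC_3_3 (0.0685). The count of p24 genes that fell was 1 in DESeq2 and 1 without the shcontrol library NC_3_3.

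Of the 9 tested retrieval receptors and cargo lectins, 5 rose and 3 fell, 88.9% called beside 61.1% of all tested genes. Their median log2 fold change was 0.167, the highest of the lists. LMAN2, ERGIC3 and ERGIC1 rose 1.17-fold, 1.15-fold and 1.14-fold (adjusted p = 1.63e-12, 1.12e-09 and 4.09e-08, edgeR). LMAN1, the ERGIC-53 lectin, averaged 99.6 ± 2.53 CPM in shHNRNPC cells and 136 ± 2.22 CPM in shcontrol cells and fell 1.37-fold (adjusted p = 2.72e-15). With the GC and length correction its log2 fold change was -0.115, against -0.45 without it. ERGIC2 fell 1.33-fold (adjusted p = 0.000102), and the KDEL receptor gene KDELR3, which returns soluble resident proteins, fell 1.23-fold (adjusted p = 0.0064). KDELR3 did not pass without the shHNRNPC library SI_3_3 (adjusted p = 0.0671). With the GC and length correction 1 receptor was called higher, ERGIC1 at 0.12, and LMAN2, ERGIC3 and ERGIC2 did not pass (adjusted p = 0.104, 0.915 and 1).

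The next list held 13 genes for the tether and SNAREs of the endoplasmic reticulum and for SNAREs of traffic between it and the Golgi. The share called was 61.5%, beside 61.1% of all tested genes. Of these 13 genes, 3 rose and 5 fell. The 3 with the largest changes encode the chains of NRZ, the tether that binds coatomer, and are set together only after their values were seen, where 31.3% of all tested genes fell: RINT1 fell 1.87-fold (7.19 ± 0.487 CPM in shHNRNPC cells, 13.5 ± 1.04 CPM in shcontrol cells, adjusted p = 8.40e-10), ZW10 fell 1.26-fold (adjusted p = 1.67e-05) and NBAS fell 1.20-fold (adjusted p = 1.45e-05, edgeR). NBAS stood at -0.14 with the GC and length correction, against -0.27 without it. The SNARE gene YKT6 had a log2 fold change of 0.06 (adjusted p = 0.0306) that turned to -0.08 with the GC and length correction. Its call was also lost in DESeq2 (0.0516), with library size alone (0.441) and without any one of SI_3, SI_3_3, NC_3_2 and NC_3_3 (0.0537 to 0.19). SEC22B and STX5 had log2 fold changes of -0.05 and 0.03 that did not pass (adjusted p = 0.127 and 0.533). With the GC and length correction their signs turned as well, to 0.38 and -0.15, past the threshold (adjusted p = 1.97e-18 and 0.000527, edgeR). With library size alone SEC22B was called lower (-0.09, adjusted p = 0.00664) and STX5 stood at -0.011. The count of genes that rose was 1 under that correction, 1 with scaling by library size alone and 1 without the shHNRNPC library SI_3.

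Of the 7 tested genes of the COG complex, a tether for vesicles within the Golgi, 1 rose and 3 fell. The share called was 57.1%, beside 61.1% of all tested genes. COG4 rose 1.17-fold (233 ± 6.07 CPM in shHNRNPC cells, 199 ± 2.47 CPM in shcontrol cells, adjusted p = 2.53e-09, edgeR). COG3 fell 1.49-fold, COG6 fell 1.48-fold and COG7 fell 1.22-fold (adjusted p = 2.34e-09, 2.25e-05 and 5.32e-06). With the GC and length correction COG6 did not pass (adjusted p = 0.161), and COG4 and COG3 stood at 0.087 and -0.355, against 0.22 and -0.57 without it. COG1, also among the most counted, had a log2 fold change of -0.06 that did not pass (adjusted p = 0.376).

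Among 13 Golgi matrix and COPI-binding genes, 3 rose and 6 fell, 69.2% called beside 61.1% of all tested genes. GOLGB1, which encodes the long Golgi tether giantin, fell 2.29-fold, with 14.2 ± 1.30 CPM in shHNRNPC cells and 32.5 ± 0.252 CPM in shcontrol cells (adjusted p = 2.61e-18, edgeR). BLZF1 and the golgin gene TRIP11 fell 1.77-fold and 1.75-fold (adjusted p = 5.86e-06 and 1.33e-07). GOLGA2, which encodes GM130, had a log2 fold change of 0.08 (adjusted p = 0.0127), while the GTPase gene RAB1B had -0.04 and did not pass (adjusted p = 0.148). GOLGA2 did not pass with the GC and length correction (0.789), with library size alone (0.218) or without SI_3 (0.051) or NC_3_3 (0.0994). RAB1B was called lower under the same correction, at -0.23, and with library size alone, at -0.08 (adjusted p = 0.00345). TRIP11 stood at -0.35 under that correction, against -0.80 without it. The count of genes that rose was 1 in DESeq2 and 0 with scaling by library size alone in edgeR, where 0 rose at an unadjusted p under 0.05. It was 0 without the shHNRNPC library SI_3, where 2 rose at an unadjusted p under 0.05, and 1 without NC_3 or without NC_3_3.

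The clathrin and AP adaptor genes were counted as the relatives of the coat that work elsewhere. Of 26 tested, 8 rose and 8 fell, 61.5% called beside 61.1% of all tested genes. The median log2 fold change was 0.013, and 5 rose with the GC and length correction. AP4E1, the epsilon chain of AP-4, fell 2.95-fold, with 7.37 ± 0.318 CPM in shHNRNPC cells and 21.7 ± 1.92 CPM in shcontrol cells (adjusted p = 1.37e-18, edgeR). AP3B1 fell 1.57-fold and AP1S3 fell 1.56-fold (adjusted p = 1.69e-13 and 4.40e-06). The clathrin heavy chain CLTC fell 1.30-fold, with 483 ± 13.6 CPM in shHNRNPC cells and 631 ± 17.5 CPM in shcontrol cells (adjusted p = 6.53e-19). AP2M1, the mu chain of AP-2 and the most counted of the list, had a log2 fold change of 0.11 (adjusted p = 2.19e-06) that turned to -0.06 with the correction. CLTC, AP3B1 and AP1S3 stood at -0.08, -0.28 and -0.38 under it, against -0.38, -0.65 and -0.64 without it. AP3D1 had 0.02, did not pass (adjusted p = 0.436) and turned to -0.03 under it and to -0.02 with library size alone.

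Of the 6 mu chains of the AP complexes, the relatives of delta-COP, 3 rose and 2 fell, with log2 fold changes between -0.31 and 0.20. Of the 7 sigma chains, the relatives of zeta-COP, 4 rose and 2 fell, between -0.64 and 0.55. Over all tested genes 29.8% rose and 31.3% fell.

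**Figure D5:**
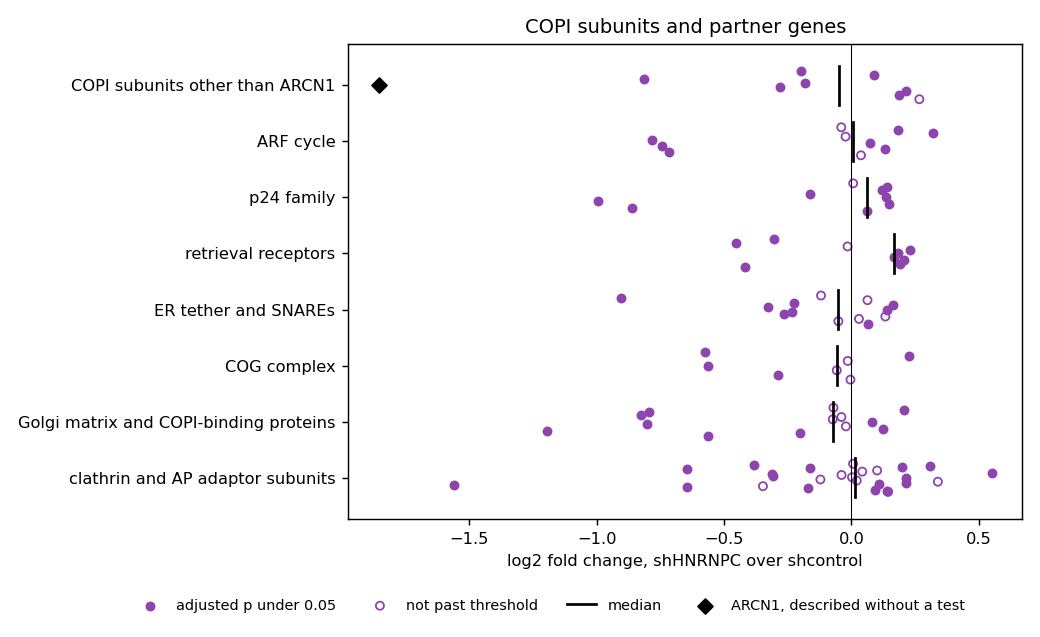
Log2 fold change, shHNRNPC over shcontrol (horizontal axis), of each tested COPI subunit gene and of each tested gene of the 7 partner lists (rows); filled circles passed an adjusted p under 0.05 in edgeR, open circles did not, vertical bars are medians over a row (the top one leaves out ARCN1), and the diamond is ARCN1, described without a test. ARCN1 at -1.86 is the lowest point, followed by AP4E1 at -1.56 and GOLGB1 at -1.20, while row medians lie between -0.074 and 0.167.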

How the data were processed

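RNA from 3 shHNRNPC and 3 shcontrol samples of MHCC97H cells was sequenced; the series type is sequencing, although its design text speaks of a microarray. STAR, DESeq2 and HTSeq 0.6.0 are the tools listed in the submitters' processing notes. No build, annotation or strand setting is given in the sources used here. The authors deposited unnormalised read counts, which are whole numbers. The log2 fold changes of SI over NC in the authors' deposited table are their own. Columns were assigned to groups by the names SI and NC, whose suffixes match no sample title. Another 24 columns of per-library values were not used, so levels per length were computed from the counts and GENCODE 29 transcript lengths, not from deposited FPKM as first planned.

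Counts were tested in R 4.3.3 with edgeR 4.0.16 (filterByExpr by group, TMM scaling, glmQLFit and glmQLFTest, Benjamini-Hochberg over all tested genes, threshold 0.05). Standard errors were derived from fold change and F statistic. CPM uses TMM-scaled library sizes. The fit was run on simulated data with 200 changed genes. In the real data 7228 of the 11831 tested genes were called, so that run does not show how the fit behaves with so many changes. Chi-square per gene between libraries was 1.56 to 2.50 within groups and 29.5 to 33.7 between groups, so no pair was counted as the same library. Promoters were matched by symbol for all 9 subunits.

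The members, lists and tests were chosen with earlier results of these data known. Named genes were HNRNPC, the subunits, of each partner list the 3 most counted members and the 3 past the threshold with the largest change, the neighbours of ARCN1 and the 5 genes most like it. A gene that this rule takes is not reported here. Alternatives were DESeq2 1.42.0, other scalings and filters, a GC and length correction (spline with 5 degrees of freedom) and leaving out each library.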

Additional observations from a re-analysis of the deposited data

How the results depend on the processing

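No paired analysis was possible because the columns carry no replicate number of the sample titles; that their suffixes recur in both groups does not tie them to pairs. Over 13 alternatives 64 single genes other than ARCN1 gave 831 values, of which 778 kept direction and side of the threshold, 31 lost the call, 5 gained it and 17 changed sign. The GC and length correction changed the sign of 11 genes. The log2 fold changes became -0.154 for COPE, -0.064 for AP2M1, -0.033 for AP3D1, -0.101 for ARF1 and 0.099 for ARF4. They became -0.097 for ARFGAP1, 0.376 for SEC22B, -0.153 for STX5, 0.245 for TMED5, -0.137 for TMED9 and -0.084 for YKT6. All but AP3D1 (adjusted p = 0.203, edgeR) passed the threshold in the turned direction. ARF4, ARFGAP1, SEC22B and STX5 had not passed without the correction, and count here as changes of sign, not as gained calls. The cause of these turns was not tested. Library size alone gave -0.019 for AP3D1, -0.003 for ARFGAP1 and -0.011 for STX5, and IFT46 turned to 0.001 with upper quartile scaling, 0.014 without SI_3_2 and 0.063 without NC_3_3 (-0.073 to 0.063 leaving out 1 library); none of these 6 passed the threshold. Under the GC and length correction ARCN1 stood at -1.73, the ARF cycle counted 2 higher and 5 lower, and retrieval receptors, ER tether and SNAREs, and clathrin and AP subunits counted 1, 1 and 5 higher. In DESeq2 the p24 family counted 1 lower and the Golgi matrix list 1 higher. With library size alone the ER tether and SNARE list counted 1 higher and the Golgi matrix list 0 in edgeR, also 0 at an unadjusted p under 0.05. Leaving out 1 library at a time gave 1 to 3 lower in the p24 family, 1 to 3 higher in the ER tether and SNARE list, 0 to 3 higher in the Golgi matrix list and -1.90 to -1.83 for ARCN1. With median transcript lengths, chosen after seeing the data, ARCN1 stood at 23.2% of the other coat positions in shHNRNPC cells and 81.3% in shcontrol cells. The other subunits counted 2 to 3 higher and 4 to 5 lower throughout. Depth limits COPZ2, with at most 69 counts a library.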
